A study of Oryctolagus cuniculus with 9 samples.

Results

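The genes of glutathione metabolism were followed through injury and hydrogel treatment of the rabbit vocal fold. They were taken from the annotation of the deposited gene table: 69 of its 20525 rows name the KEGG pathway of glutathione metabolism. The 4 rows left out were IDH1 and IDH2, which the annotation also places in the citrate cycle, and GCLC and GCLM, the subunits of the enzyme for the first step of glutathione synthesis, which leaves 65 genes. The rule used only the annotation and gene names, but it was set with earlier results of these data known. The 65 include 7 glutathione peroxidases, 30 glutathione transferases, glutathione synthetase and reductase, the NADPH-supplying PGD, 12 genes of glutathione breakdown and the gamma-glutamyl cycle, ornithine decarboxylase and spermine synthase, 3 ribonucleotide reductase subunits and TXNDC12. The other 6 genes (AZIN1, LOC100344262, RMND1, TM4SF1, TM4SF19 and UBL4A) are described in the table as proteins that are not enzymes of this pathway, and 59 genes remain without them. The peroxidase GPX4 is not among the 65, so the sums and counts of peroxidases below leave it out.

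Polyadenylated RNA of vocal folds was sequenced in 3 groups of 3 libraries. The SOT folds were injured, given the SOT hydrogel and collected 1 week after injury. The untreated folds were injured, given nothing and collected at the same time. The normal folds were not injured. The series title calls the hydrogel antioxidant and adhesive, and the labels do not spell out SOT. The labels give neither strain, sex and age of the rabbits nor the kind of wound, and they do not say whether the libraries of a group came from separate animals, so the p-values below measure only the spread between these libraries, which may be technical.

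Glutathione is a small thiol peptide that cells hold at high concentration. Glutathione peroxidases use it to reduce hydrogen peroxide and lipid peroxides, glutathione reductase restores the oxidised form with NADPH, and glutathione transferases couple it to reactive compounds so that these can be exported. Gamma-glutamyl transferases on the cell surface start the breakdown of exported glutathione, and its amino acids are taken up again. Lining epithelia of the airway are known for high levels of several of these enzymes.

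The libraries held 48444181 to 49434268 gene counts in SOT folds, 49771566 to 50338111 in untreated folds and 44755718 to 45521838 in normal folds. The labels name histiocytes, a word for tissue macrophages, as the cell type, and the tissue as vocal fold. Marker genes of several tissues were present, so the values are read here as whole tissue. The 9 skeletal muscle markers in the table (of 10 listed) summed to 1069 to 4635 CPM in SOT folds, 433 to 3196 CPM in untreated folds and 9129 to 11553 CPM in normal folds. The 7 macrophage markers (of 10) summed to 503 to 923 CPM in SOT folds, 1454 to 1698 CPM in untreated folds and 251 to 303 CPM in normal folds, with no overlap between any of the 3 groups. The 7 airway secretory and ciliated markers summed to 2099, 495 and 519 CPM in SOT folds, 1756, 302 and 746 CPM in untreated folds and 9861, 10631 and 1193 CPM in normal folds. In these markers SOT replicate 1 and untreated replicate 1 were above the others of their groups, and normal replicate 3 was far below the other normal libraries. Normal replicate 3 stood apart in other markers too, where it was the highest normal library. Its stratified epithelium sum was 14655 CPM against 7195 and 5743 CPM in normal replicates 1 and 2. Its neutrophil sum was 2039 CPM against 684 and 587 CPM, and its proliferating cell sum 392 CPM against 212 and 201 CPM. Fewer cells of a type and less RNA per cell cannot be told apart in such bulk samples.

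Levels are given as CPM, a gene's count relative to its library's total, scaled between libraries by the TMM method, wherever 1 gene is compared between groups. Levels of different genes are compared in FPKM, which divides by gene length. Changes are log2 fold changes of the first-named group over the second, with their standard error (SE), from edgeR's quasi-likelihood test on 17344 genes. A gene is said to have risen or fallen where its Benjamini-Hochberg adjusted p over all of these was under 0.05. Other fits, among them DESeq2 on the counts and 3 limma fits on log2(FPKM + pseudocount), are named where they changed a call. Of the 65 genes, 55 had enough counts to be tested.

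The most abundant of the genes per length was GPX1, the cytosolic selenium peroxidase that reduces hydrogen peroxide, at 777 ± 115 FPKM in SOT folds, 945 ± 68.1 FPKM in untreated folds and 477 ± 48.7 FPKM in normal folds (SD, n = 3 each). GSTP1, the pi-class transferase, followed with 702 ± 125, 419 ± 69.7 and 587 ± 63.4 FPKM in SOT, untreated and normal folds. GPX1 was above GSTP1 in each of the untreated libraries, and GSTP1 was above GPX1 in each of the normal libraries. In SOT folds the order differed between libraries, since GPX1 had 909, 725 and 698 FPKM and GSTP1 had 558, 786 and 761 FPKM in replicates 1, 2 and 3. The microsomal transferase MGST3 came next, at 179.6 ± 31.3, 134 ± 25.6 and 246 ± 97.4 FPKM in SOT, untreated and normal folds. The mu-class transferase LOC100357917 was at 168 ± 19.4, 158 ± 10.3 and 183 ± 18.1 FPKM, and the libraries of both genes overlapped in every group.

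Added up by class, the peroxidase sum was highest in untreated folds and the transferase sum in normal folds, and the peroxidase order was that of GPX1. The 7 peroxidases summed to 992 ± 99.6 FPKM in SOT folds, 1119.5 ± 63.9 FPKM in untreated folds and 796 ± 67.6 FPKM in normal folds (SD, n = 3 each). Without GPX1 the other 6 peroxidases summed to 215 ± 18.9 FPKM in SOT folds, 174 ± 17.7 FPKM in untreated folds and 319 ± 42.8 FPKM in normal folds, which was highest in normal and lowest in untreated folds. The 30 transferases summed to 1655 ± 239 FPKM in SOT folds, 1224 ± 190.2 FPKM in untreated folds and 2002 ± 165 FPKM in normal folds. In untreated folds the peroxidase sums of 1067, 1101 and 1191 FPKM all lay above the normal ones of 718, 829.8 and 841 FPKM, while the transferase sums of 1426, 1049 and 1197 FPKM all lay below the normal ones of 2091, 1812 and 2104 FPKM. The alpha and mu classes together with GSTP1 made up most of the transferase total. The alpha class held 6.17 ± 2.35% in SOT folds, 5.41 ± 1.04% in untreated folds and 11.4 ± 1.93% in normal folds. The mu class held 21.7 ± 2.73% in SOT folds, 27.1 ± 0.8496% in untreated folds and 31.7 ± 3.64% in normal folds. GSTP1 alone held 42.3 ± 3.03% in SOT folds, 34.2 ± 0.481% in untreated folds and 29.3 ± 1.25% in normal folds. These sums are descriptions and were not tested. The deposited FPKM were summed without the TMM scaling of the CPM. Over all genes tested, the median log2 fold change of SOT over untreated folds was 0.13 on log2(FPKM + 0.1) and 0.01 in edgeR. For SOT over normal folds these medians were 0.12 and 0.02. The FPKM sums of SOT folds thus tend to lie higher against both other groups than scaled counts would.

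**Figure D1:**
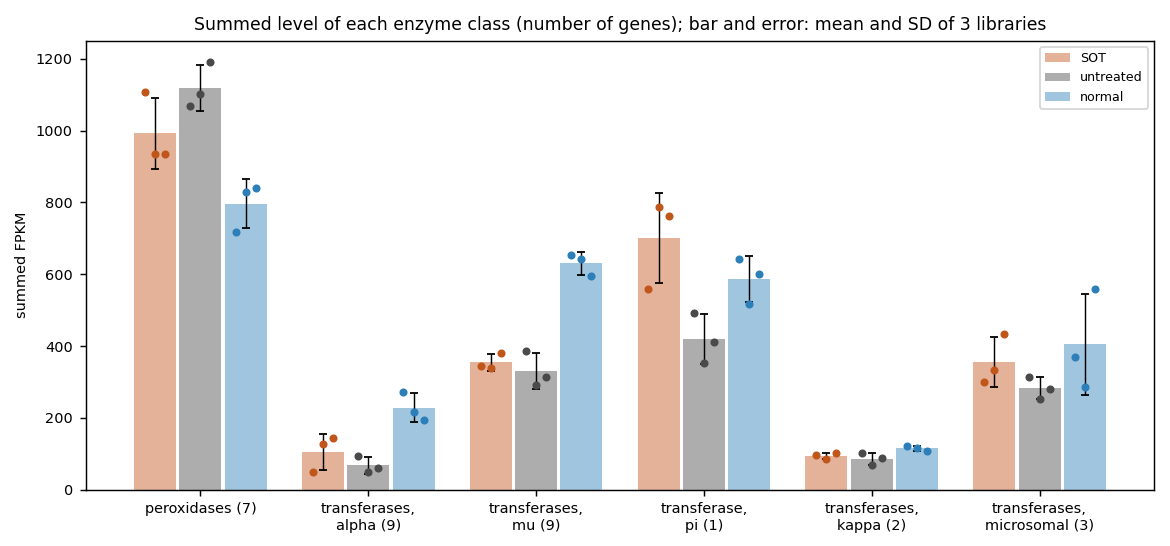
Summed FPKM (vertical axis, from 0) of 6 enzyme classes with the number of genes in brackets; bars are group means, error bars the SD of 3 libraries, points the libraries, in the order SOT, untreated and normal. The mu-class sum was 355 ± 23.2 FPKM in SOT folds, 331 ± 50.02 FPKM in untreated folds and 630.5 ± 31.6 FPKM in normal folds, with every normal library above every library of the injured folds; the highest GSTP1 values were those of 2 SOT libraries.

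The first comparison sets untreated injured folds against normal folds, whose tissue markers also differed, as given above. The intracellular peroxidases GPX1, GPX7 and GPX8 and both main ribonucleotide reductase subunits rose 1 week after injury, and the secreted peroxidase GPX3 and several transferases of the alpha, mu and kappa classes fell. The largest fall among the genes that passed was that of the mu-class transferase LOC100357148, whose mean in normal folds was 10.6 times that in untreated folds. The largest rise was that of LOC100340452, the gamma-glutamyl transferase GGT1, to 7.73 times the normal mean. In all, 11 of the 55 tested genes rose and 10 fell, against 17.7% and 15.1% of all genes tested, so the shares of 20% and 18.2% lie near the background. The groups did not overlap for 15 genes that were higher and 15 that were lower in untreated folds, where 28% and 27.1% of all genes did so. The median log2 fold change was −0.24 over the 55 genes and −0.02 over all genes tested. Without the 6 genes that are not enzymes of the pathway, 10 of 50 rose and 10 fell.

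Of the 6 peroxidases tested, 3 rose and 1 fell, where 17.7% and 15.1% of all genes did. GPX1 (chromosome 9, bases 16889539 to 16890546, assembly OryCun2.0) had 779, 584 and 557 CPM in SOT folds, 792, 863 and 904 CPM in untreated folds and 391, 408 and 462 CPM in normal folds. The 3 untreated libraries were the highest of the 9 and the 3 normal libraries the lowest, with the SOT libraries between them. GPX1 rose to 2.03 times the normal mean (log2 fold change 1.02 with SE 0.16 and adjusted p = 0.00286). GPX7 (chromosome 13, bases 114088906 to 114096508), a peroxidase of the endoplasmic reticulum that passes oxidising power to protein disulfide isomerase, had 46.3, 80.98 and 35.4 CPM in SOT folds, 72.1, 78.4 and 83.2 CPM in untreated folds and 31.01, 36.99 and 31.7 CPM in normal folds. Every untreated library lay above every normal one, while SOT replicate 2 lay with the untreated libraries and SOT replicate 3 near the normal ones. GPX7 rose after injury (log2 fold change 1.23 with SE 0.27 and adjusted p = 0.0105). GPX8 (chromosome 11, bases 71131853 to 71138135), the membrane-bound peroxidase of the same compartment, had 58.2, 72.3 and 37.5 CPM in SOT folds, 70.9, 83.7 and 70.2 CPM in untreated folds and 32.5, 51.6 and 37.7 CPM in normal folds. All untreated libraries were above all normal ones, and the SOT libraries spanned both groups. GPX8 rose (log2 fold change 0.88 with SE 0.25 and adjusted p = 0.0287), but this call was lost on leaving out untreated replicate 1, 2 or 3 or normal replicate 1 or 3, with adjusted p between 0.0518 and 0.0955. GPX8 lies inside CDC20B on the opposite strand, and that gene had a mean of 152 counts against 2766 for GPX8.

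GPX3 (chromosome 3, bases 32604590 to 32612826), the peroxidase secreted into plasma and extracellular fluid, went the other way. It had 201, 32.95 and 47.9 CPM in SOT folds, 68.8, 49.8 and 57.4 CPM in untreated folds and 372, 464 and 351 CPM in normal folds. The normal libraries were far above all others, the untreated libraries were close together, and among the SOT libraries replicate 1 was high. GPX3 fell in untreated folds, where the normal mean was 6.74 times as high (log2 fold change -2.75 with SE 0.62 and adjusted p = 0.0118). Without untreated replicate 3 the adjusted p was 0.0509. GPX2, the peroxidase of epithelia, had 37.2, 108 and 176 CPM in SOT folds, 90.3, 60.8 and 74.3 CPM in untreated folds and 64.9, 69.4 and 103 CPM in normal folds and did not pass (log2 fold change -0.08 with SE 0.47 and adjusted p = 0.918). GPX6, known in human as a peroxidase of the olfactory epithelium, was at most 22.6 CPM and did not pass either. GPX5 had at most 4 counts in a library and was not tested.

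**Figure D2:**
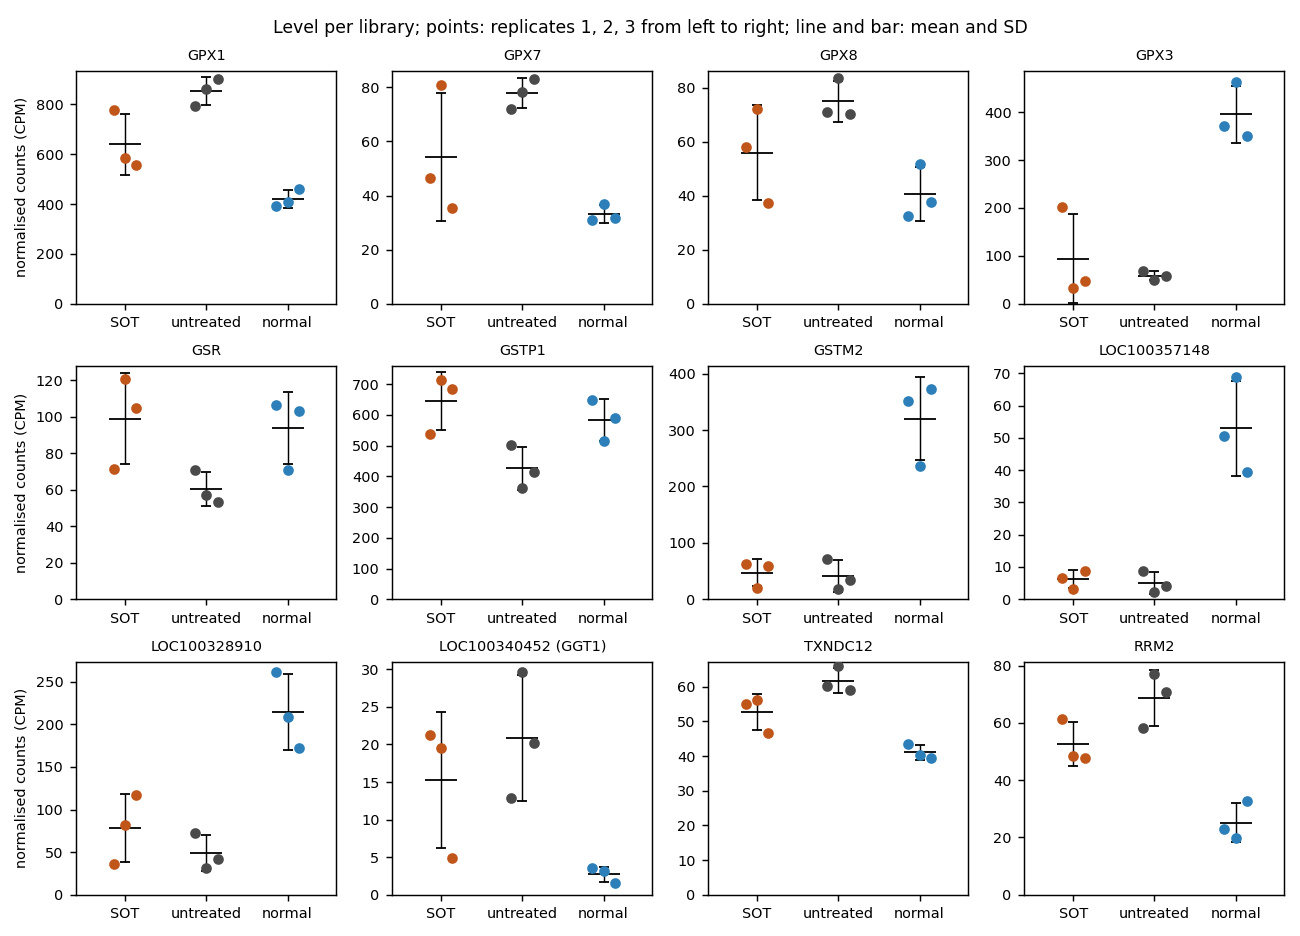
Normalised counts (CPM, vertical axes from 0) of 12 of the genes in each library of the SOT, untreated and normal folds; points are replicates 1, 2 and 3 from left to right, and lines with bars are the mean and SD. GPX1, GPX7, GPX8, TXNDC12 and RRM2 have their highest mean in untreated folds, and GPX3, GSTM2, LOC100357148 and LOC100328910 have it in normal folds.

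Among the transferases no gene rose, and 6 of the 22 cytosolic and kappa genes tested fell, as did 1 of 2 microsomal ones, where 17.7% of all genes rose and 15.1% fell. The mu class lies as a cluster of 9 genes on chromosome 13, bases 54401049 to 54542264 (OryCun2.0), within 141 kb. GSTM2 (described in the table as Mu 1) had 61.98, 20.6 and 59.6 CPM in SOT folds, 72.1, 17.4 and 33.6 CPM in untreated folds and 352, 236 and 373 CPM in normal folds. All normal libraries were far above all injured ones, and the SOT and untreated libraries overlapped. GSTM2 fell after injury (log2 fold change -2.96 with SE 0.59 and adjusted p = 0.00713). Its neighbour LOC100357148, described as Yb-3, had 6.73, 3.29 and 8.85 CPM in SOT folds, 8.72, 2.25 and 3.98 CPM in untreated folds and 50.4, 68.8 and 39.5 CPM in normal folds. The same gap separated normal from injured folds, and the gene fell (log2 fold change -3.41 with SE 0.56 and adjusted p = 0.00332). LOC100357403 had 2.64, 2.07 and 2.23 CPM in SOT folds, 3.58, 1.34 and 1.65 CPM in untreated folds and 8.83, 14.6 and 5.87 CPM in normal folds and fell as well (log2 fold change -2.16 with SE 0.45 and adjusted p = 0.00873).

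The rest of the mu cluster did not pass in edgeR with all libraries. LOC100357917, the most abundant mu gene in each injured group, had 150.2, 170.5 and 174 CPM in SOT folds, 185, 166 and 164 CPM in untreated folds and 196, 213 and 173 CPM in normal folds, and the groups overlapped (log2 fold change -0.17 with SE 0.12 and adjusted p = 0.283). GSTM3 had 117, 95.97 and 99.04 CPM in SOT folds, 132, 104 and 106 CPM in untreated folds and 140.3, 149 and 134 CPM in normal folds, with every untreated library below every normal one (log2 fold change -0.31 with SE 0.13 and adjusted p = 0.0955, or 0.0406 without untreated replicate 1). GSTM3 passed in the fit with upper-quartile scaling and limma on log2(FPKM + 0.1) and on log2(FPKM + 1) (adjusted p 0.0373 to 0.04903). LOC100358177, which RefSeq names GSTM4, did not pass in edgeR (log2 fold change -0.33 with SE 0.13 and adjusted p = 0.0897) but did in the fit with upper-quartile scaling and limma on log2(FPKM + 0.1) and on log2(FPKM + 1) (adjusted p 0.0385 to 0.0459). LOC100356307 was uneven within the normal folds, at 13.5, 14.3 and 22.3 CPM in SOT folds, 17.97, 10.8 and 16.9 CPM in untreated folds and 72.8, 72.1 and 7.97 CPM in normal folds. Normal replicate 3, the normal library low in airway markers and high in stratified epithelium, neutrophil and proliferating cell markers, was below every injured library. With it the gene did not pass (log2 fold change -1.74 with SE 0.68 and adjusted p = 0.0811), and without it the adjusted p was 0.00291; it also passed in DESeq2 (adjusted p 0.0201). The part of any of these markers in this was not tested. LOC100339996 showed the same low value in normal replicate 3, at 1.16 CPM against 13.5 and 15.1 CPM in the other normal libraries, and LOC108177608 was not tested. LOC100357403 and LOC100357917 overlap over 6803 bases of the same strand, and genes of the mu class are known as close copies of each other. How reads that fit several of them were counted is not given in the sources used here, so the split between them is uncertain.

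**Figure D3:**
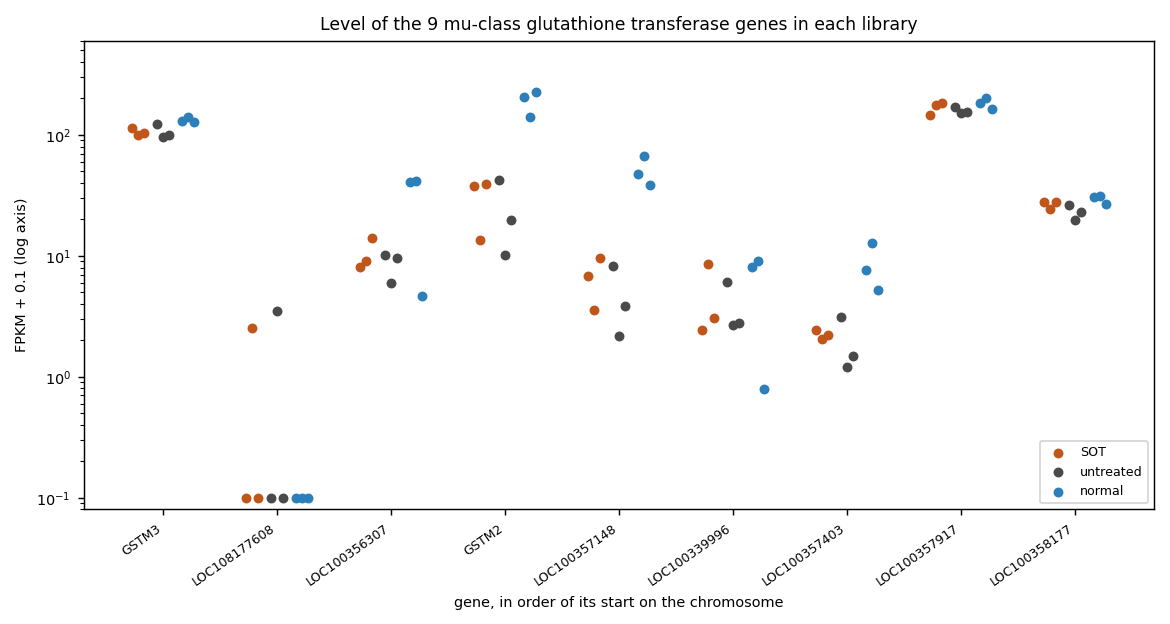
Level of the 9 mu-class genes (FPKM + 0.1, log axis) in each library, with genes in the order of their start on the chromosome; points left to right are SOT, untreated and normal libraries. GSTM2, LOC100357148 and LOC100357403 are separated between normal and injured folds. GSTM3 is separated by a small gap, at 95.5 to 122 FPKM in injured folds and 129 to 142 FPKM in normal folds. LOC100357917 and LOC100358177 lie close together in all groups, and LOC100356307 and LOC100339996 overlap between normal and injured folds.

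The alpha class, known for reducing lipid hydroperoxides and for clearing their aldehyde products, forms a second cluster of 9 genes on chromosome 12, bases 42256212 to 42738886 (OryCun2.0). Most of its RNA per length came from LOC100328910, described as alpha I, at 80.5 ± 43.5 FPKM in SOT folds, 45.1 ± 19.9 FPKM in untreated folds and 202 ± 39.1 FPKM in normal folds. This gene had 36.5, 81.6 and 117 CPM in SOT folds, 73.1, 31.5 and 42.4 CPM in untreated folds and 262, 209 and 173 CPM in normal folds. Normal libraries were the highest without overlap, and LOC100328910 fell in untreated folds (log2 fold change -2.13 with SE 0.45 and adjusted p = 0.00917). LOC100341622, described as A4, had 7.67, 11.9 and 13.6 CPM in SOT folds, 11.8, 6.88 and 9.15 CPM in untreated folds and 17.9, 17.6 and 17.1 CPM in normal folds. It fell too (log2 fold change -0.92 with SE 0.25 and adjusted p = 0.0256), a call that was lost on leaving out untreated replicate 2 or 3 or normal replicate 1, 2 or 3, with adjusted p between 0.0507 and 0.08504. LOC100341104, described as alpha-3, ran against its neighbours, at 0.0818, 0.785 and 0 CPM in SOT folds, 2.74, 2.76 and 3.77 CPM in untreated folds and 0, 0.2199 and 0.939 CPM in normal folds. Its untreated libraries lay above all others, and the difference did not pass in edgeR (log2 fold change 2.99 with SE 1.47 and adjusted p = 0.151), but it passed in all 3 limma fits (adjusted p 0.00415 to 0.0329). The other alpha genes tested (LOC100328911, LOC100353681, LOC100353927, LOC100354186 and LOC100354436) had at most 13.6 CPM in any library, that of LOC100353927 in SOT replicate 2, and did not pass, and LOC100353174 was not tested.

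Of the kappa genes, mitochondrial and peroxisomal transferases that are neighbours on chromosome 7, LOC100350399 (bases 8851294 to 8855910) had 38.8, 32.4 and 34.1 CPM in SOT folds, 36.9, 27.6 and 31.5 CPM in untreated folds and 55.6, 50.7 and 53.4 CPM in normal folds. Normal libraries were above all injured ones, and LOC100350399 fell (log2 fold change -0.73 with SE 0.13 and adjusted p = 0.00445). Its neighbour LOC100349830 did not pass (log2 fold change -0.24 with SE 0.17 and adjusted p = 0.327). GSTP1 had 539.5, 714 and 684 CPM in SOT folds, 501, 363 and 415 CPM in untreated folds and 649, 514 and 589.5 CPM in normal folds. Its untreated libraries lay below all normal and all SOT ones, and the difference from normal folds missed the threshold in edgeR (log2 fold change -0.45 with SE 0.17 and adjusted p = 0.0761), but it passed in DESeq2 and the fit with upper-quartile scaling (adjusted p 0.0308 to 0.04797). MGST3 had 135, 129 and 169 CPM in SOT folds, 143, 98.5 and 115 CPM in untreated folds and 199, 139.8 and 302 CPM in normal folds. It fell by the test although 1 untreated library exceeded 1 normal library (log2 fold change -0.85 with SE 0.27 and adjusted p = 0.0445). The call was lost on leaving out SOT replicate 1 or 2 or untreated replicate 2 or 3 or normal replicate 1 or 3, with adjusted p between 0.0507 and 0.144, and in the fit of the 6 libraries compared and all 3 limma fits (adjusted p 0.0501 to 0.0597). MGST1, the microsomal transferase of detoxification in liver, showed no change that passed (log2 fold change -0.05 with SE 0.20 and adjusted p = 0.863). The omega genes GSTO1 and LOC100339842 and the theta gene LOC100340711 did not pass, and HPGDS, MGST2 and the theta genes LOC100338194 and LOC100338449 were not tested.

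The enzymes that make and restore glutathione did not pass the test. GSS, the synthetase of the last step, had 48.1, 60.6 and 65.7 CPM in SOT folds, 52.4, 46.7 and 49.2 CPM in untreated folds and 54.04, 44.5 and 58.003 CPM in normal folds, and all groups overlapped (log2 fold change -0.08 with SE 0.14 and adjusted p = 0.711). GSR, the reductase, had 71.5, 121 and 105 CPM in SOT folds, 70.99, 57.2 and 53.4 CPM in untreated folds and 107, 71.01 and 103 CPM in normal folds. Its untreated libraries lay at or below every other library, and the difference from normal folds missed the threshold (log2 fold change -0.63 with SE 0.23 and adjusted p = 0.0654). Leaving out SOT replicate 1 or 2 or normal replicate 2 brought GSR under the threshold, with adjusted p between 0.0319 and 0.0499, and it also passed in DESeq2, the fit of the 6 libraries compared and the fit with upper-quartile scaling (adjusted p 0.0341 to 0.0476).

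PGD, an enzyme of the pentose phosphate pathway that supplies the reductase with NADPH, had 184, 234 and 202 CPM in SOT folds, 253, 238 and 244 CPM in untreated folds and 141, 124 and 198 CPM in normal folds. Untreated libraries were above all normal ones and normal replicate 3 was the highest of its group. PGD rose (log2 fold change 0.67 with SE 0.18 and adjusted p = 0.0221), and the call was lost on leaving out untreated replicate 1, 2 or 3 or normal replicate 1 or 2, with adjusted p between 0.0546 and 0.0765.

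In glutathione breakdown, LOC100340452, the table's gamma-glutamyltranspeptidase 1 and GGT1 in RefSeq, had 21.3, 19.6 and 4.92 CPM in SOT folds, 12.9, 29.6 and 20.2 CPM in untreated folds and 3.504, 3.101 and 1.51 CPM in normal folds. Normal libraries were the lowest without overlap, and among SOT libraries replicate 3 was near normal. The gene rose (log2 fold change 2.95 with SE 0.60 and adjusted p = 0.00778). GGT7, another member of the gamma-glutamyl transferase family, had 26.04, 29.1 and 11.9 CPM in SOT folds, 25.6, 16.6 and 20.9 CPM in untreated folds and 73.7, 97.9 and 24.7 CPM in normal folds. Normal replicate 3 was again the low library of its group and overlapped the untreated range. GGT7 fell (log2 fold change -1.64 with SE 0.50 and adjusted p = 0.0374), a call lost on leaving out SOT replicate 1 or untreated replicate 1, 2 or 3 or normal replicate 1 or 2, with adjusted p between 0.05005 and 0.122, and in all 3 limma fits (adjusted p 0.0547 to 0.0645). The aminopeptidase LAP3, which splits the cysteinylglycine left by GGT, had 202, 142 and 256 CPM in SOT folds, 175, 219.8 and 186 CPM in untreated folds and 115, 135 and 124 CPM in normal folds. It rose (log2 fold change 0.64 with SE 0.21 and adjusted p = 0.0444), and the call was lost on leaving out SOT replicate 1 or untreated replicate 1, 2 or 3 or normal replicate 1, 2 or 3, with adjusted p between 0.0553 and 0.143, and in the fit with RLE scaling, the fit with upper-quartile scaling and all 3 limma fits (adjusted p 0.0508 to 0.0659). GGCT, CHAC1, CHAC2, GGT5, GGT6, ANPEP and the NAT8B-like LOC100353153 did not pass, with adjusted p between 0.0673 for GGCT and 0.935 for LOC100353153. Without SOT replicate 2 the adjusted p of GGCT was 0.0307, and without normal replicate 3 that of ANPEP was 0.0278. GGCT also passed in the fit of the 6 libraries compared (adjusted p 0.0328). LOC100352648 and LOC100352904 were not tested.

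Ribonucleotide reductase, which makes deoxynucleotides and draws electrons from glutaredoxin or thioredoxin, moved by subunit. RRM2, the subunit made in dividing cells, had 61.4, 48.4 and 47.9 CPM in SOT folds, 58.2, 77.2 and 70.7 CPM in untreated folds and 22.8, 19.7 and 32.8 CPM in normal folds. Normal libraries were below all injured ones, and RRM2 rose to 2.74 times the normal mean (log2 fold change 1.45 with SE 0.21 and adjusted p = 0.00218). RRM1 (chromosome 1, bases 145017822 to 145054256), the large subunit, had 61.5, 62.7 and 57.995 CPM in SOT folds, 72.9, 78.2 and 78.6 CPM in untreated folds and 51.99, 47.4 and 58.3 CPM in normal folds, with the 3 untreated libraries highest. It rose (log2 fold change 0.54 with SE 0.10 and adjusted p = 0.00519). RRM2B, the small subunit used outside cell division, had 13.7, 8.47 and 14.1 CPM in SOT folds, 12.9, 5.94 and 7.98 CPM in untreated folds and 20.3, 16.5 and 15.02 CPM in normal folds. Untreated libraries were below all normal ones, and RRM2B fell (log2 fold change -0.95 with SE 0.31 and adjusted p = 0.0466); the call was lost on leaving out SOT replicate 1 or untreated replicate 2 or 3 or normal replicate 1, 2 or 3, with adjusted p between 0.0523 and 0.145, and in the fit without the filter (adjusted p 0.05098). The 8 markers of proliferating cells, none of them at 0 in all libraries, summed to 418 to 453 CPM in SOT folds and 502 to 593 CPM in untreated folds. In normal folds they summed to 212, 201 and 392 CPM, and 7 of the 8 rose. Their part in the RRM1 and RRM2 results was not tested.

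ODC1, the first enzyme of polyamine synthesis, had 158, 143 and 101 CPM in SOT folds, 118, 150.0 and 140.1 CPM in untreated folds and 98.9, 87.8 and 69.5 CPM in normal folds. Untreated libraries were above all normal ones, and ODC1 rose (log2 fold change 0.67 with SE 0.20 and adjusted p = 0.0308). Its call was lost on leaving out untreated replicate 2 or 3 or normal replicate 2 or 3, with adjusted p between 0.0722 and 0.102, and in the fit with upper-quartile scaling (adjusted p 0.05102). SMS, spermine synthase, did not pass (log2 fold change -0.60 with SE 0.32 and adjusted p = 0.188). TXNDC12 (chromosome 13, bases 114688658 to 114718633), a thiol-disulfide oxidoreductase of the endoplasmic reticulum, had 55.1, 56.2 and 46.6 CPM in SOT folds, 60.2, 65.9 and 59.1 CPM in untreated folds and 43.5, 40.5 and 39.4 CPM in normal folds. The 3 untreated libraries were the highest of the 9 and the 3 normal ones the lowest, and TXNDC12 rose (log2 fold change 0.59 with SE 0.10 and adjusted p = 0.00449). It overlaps KTI12 over 17397 bases of the same strand, with means of 2505 counts for TXNDC12 and 762 for KTI12.

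Of the genes annotated through another enzyme, TM4SF19 had 3.76, 4.09 and 0.799 CPM in SOT folds, 2.36, 3.82 and 4.502 CPM in untreated folds and 0.876, 0.418 and 1.005 CPM in normal folds. Every untreated library was above every normal one. TM4SF19, a membrane protein of the tetraspanin-like L6 family, rose (log2 fold change 2.21 with SE 0.63 and adjusted p = 0.02796), a call lost on leaving out untreated replicate 2 or 3 or normal replicate 1, 2 or 3, with adjusted p between 0.0513 and 0.0888. AZIN1, RMND1, TM4SF1 and UBL4A did not pass in edgeR. UBL4A was near the threshold (log2 fold change -0.40 with SE 0.14 and adjusted p = 0.0539) and passed in the fit with RLE scaling, DESeq2, the fit of the 6 libraries compared, the fit with upper-quartile scaling and all 3 limma fits (adjusted p 0.0165 to 0.0422). It also passed without SOT replicate 1 or 3 or normal replicate 2, with adjusted p between 0.0244 and 0.0417. The adjusted p of TM4SF1 was 0.289 with all libraries and 0.0212 without SOT replicate 3, and TM4SF1 also passed in the fit of the 6 libraries compared (adjusted p 0.0224); LOC100344262 was not tested.

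Of the 21 calls between untreated and normal folds, 11 held when any of the 9 libraries was left out and in the 9 other fits tried. Those that rose were GPX1, GPX7, LOC100340452, RRM1, RRM2 and TXNDC12, and those that fell were LOC100328910, GSTM2, LOC100357148, LOC100357403 and LOC100350399. Dropping untreated replicate 2 or 3 left 6 rises in place of 11, and dropping normal replicate 1 or 2 left 7. For the 10 falls, 6 were left when untreated replicate 2 or normal replicate 1 was dropped and 5 when untreated replicate 3 was. The counts over all genes moved as well: the 3074 rises became 2002 and 1915 without untreated replicate 2 and 3, and the 2618 falls became 1416, 1230 and 1677 without untreated replicate 2, untreated replicate 3 and normal replicate 1. Markers of other tissues moved in the same comparison: all 7 macrophage markers rose, 7 of 9 skeletal muscle markers and 6 of 7 cartilage markers fell, and the cartilage sum was 81.8 to 493 CPM in SOT folds, 44.6 to 109.6 CPM in untreated folds and 2156 to 4417 CPM in normal folds. Of the neutrophil markers 5 of 6 rose, from sums of 587 to 2039 CPM in normal folds to 4700 to 6917 CPM in untreated folds. Of the fibroblast markers 4 of 6 rose and 1 fell, from sums of 10663 to 13158 CPM to 41776 to 43769 CPM. Endothelial markers rose in 3 of 4 cases, from sums of 302 to 552 CPM to 1151 to 1304 CPM. Nerve and Schwann cell markers fell in 3 of 5 cases. Their part in the results on these genes was not tested.

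**Figure D4:**
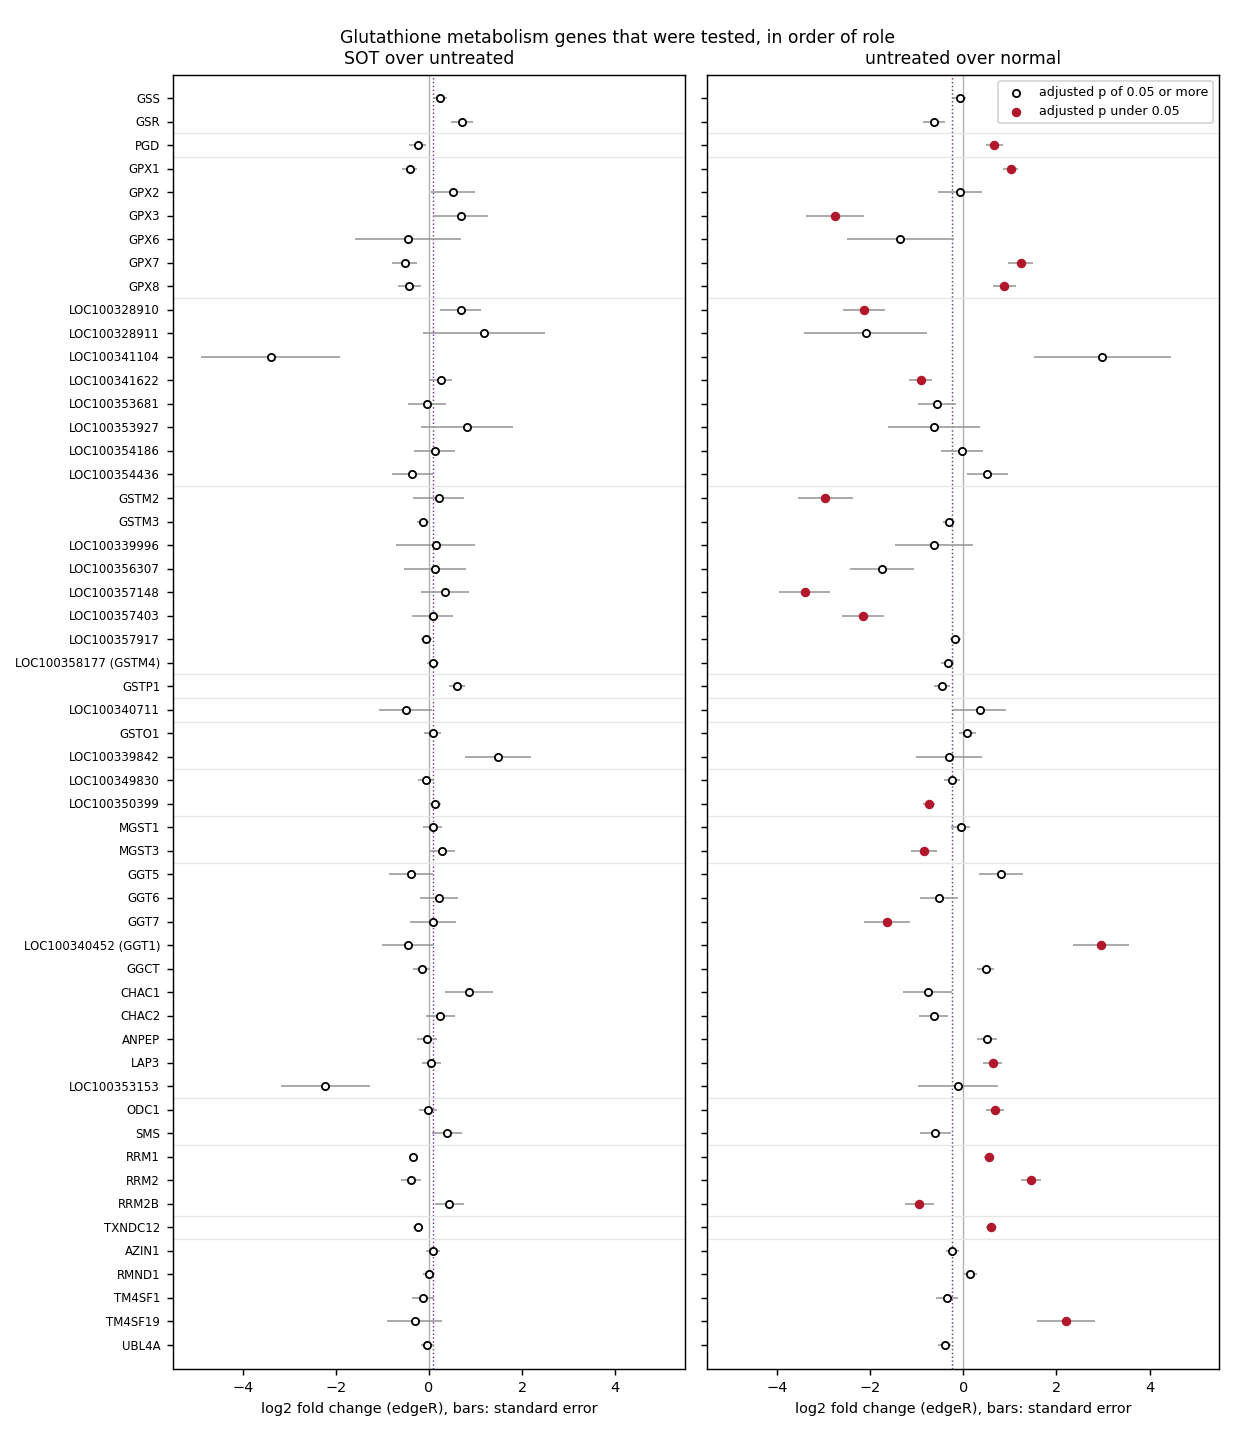
Log2 fold changes (horizontal axis) of 54 of the 55 tested genes, in order of role, for SOT over untreated folds (left) and untreated over normal folds (right); bars are SE, filled points have an adjusted p under 0.05, and the dotted line is the median of the 55 genes. The left panel holds no filled point, and the right panel holds 11 to the right of 0 and 10 to the left.

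The second comparison asks whether the hydrogel changed these genes in injured folds. No gene of the 55 passed in either direction by edgeR's quasi-likelihood test with Benjamini-Hochberg adjustment. Of all genes tested, 0% rose and 0.0115% fell, which is 2 of 17344 genes. Without SOT replicate 1, 76 of all genes rose and 321 fell, and without untreated replicate 1, 2 rose and 4 fell. GSTP1 and GSR were higher in all SOT libraries than in any untreated library, with means 1.52 and 1.64 times as high. GPX1 and RRM1 were lower in all of them, with means 0.7498 and 0.793 times the untreated ones. At an unadjusted p under 0.05, 2 of the 55 genes were higher and 3 lower in SOT folds, where 5.06% and 7.59% of all genes were. DESeq2 called 1 of the 55 higher and 0 lower, and 221 of all genes higher and 424 lower. Limma called 0 of the 55 on log2(FPKM + 0.1) and on log2(FPKM + 1). The groups did not overlap for 2 genes that were higher and 6 that were lower, against 7.4% and 12.4% of all genes. The median log2 fold change was 0.08 over the 55 genes and 0.01 over all genes tested. On leaving out 1 library the median of the 55 genes lay between −0.04 and 0.08, and it was below 0 without SOT replicate 1 (−0.01), SOT replicate 2 (−0.04), untreated replicate 2 (−0.04) or untreated replicate 3 (−0.03).

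GSTP1, with library values as above, averaged 646 ± 93.6 CPM in SOT folds and 426 ± 69.6 CPM in untreated folds (SD, n = 3 each). The lowest SOT library, replicate 1, was only slightly above the highest untreated one. The difference did not pass in edgeR (log2 fold change 0.60 with SE 0.17 and adjusted p = 0.2403), and its 95% interval ran from 0.20 to 1.00 on the log2 scale. In DESeq2 its adjusted p was 0.0309. GSR averaged 99.003 ± 25.1 CPM in SOT folds and 60.5 ± 9.27 CPM in untreated folds. SOT replicate 1 and untreated replicate 1 were nearly equal, and the other SOT libraries were clearly higher (log2 fold change 0.71 with SE 0.23 and adjusted p = 0.281, 95% interval 0.19 to 1.23). GSS showed a smaller difference, with an interval of -0.10 to 0.56.

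GPX1 averaged 639.7 ± 121 CPM in SOT folds and 853 ± 56.5 CPM in untreated folds. SOT replicate 1 came close to the lowest untreated library, and SOT replicates 2 and 3 were well below it (log2 fold change -0.42 with SE 0.16 and adjusted p = 0.333, 95% interval -0.78 to -0.05). RRM1 averaged 60.7 ± 2.46 CPM in SOT folds and 76.6 ± 3.19 CPM in untreated folds, and all SOT libraries were lower (log2 fold change -0.33 with SE 0.10 and adjusted p = 0.249). The other genes lower in all SOT libraries were PGD, TXNDC12, LOC100341104 and the NAT8B-like LOC100353153, of which the last had at most 0.293 CPM in untreated folds. GPX3 was highest in SOT replicate 1, and without that library its log2 fold change was −0.51 in place of 0.68. The transferases that fell after injury overlapped between SOT and untreated folds: intervals ran from -1.04 to 1.46 for GSTM2, from -0.84 to 1.51 for LOC100357148 and from -0.32 to 1.67 for LOC100328910, so all of these intervals reach past 1 log2 unit upward. Macrophage markers, which summed to 923, 664 and 503 CPM in SOT folds, against 1454, 1698 and 1658 CPM in untreated folds, were lower in every SOT library, as GPX1 and RRM1 were. The summed neutrophil, fibroblast, proliferating cell, stratified epithelium, mast cell and erythrocyte markers were also lower in every SOT library. Proliferating cell markers summed to 418 to 453 CPM in SOT folds and 502 to 593 CPM in untreated folds. The other marker lists overlapped between these groups. No marker of any list passed in edgeR, and their part in the values of GPX1 and RRM1 was not tested.

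The third comparison sets SOT folds against normal folds, and it shares its libraries with the other comparisons. Here 4 of the 55 genes rose and 5 fell, where 9.01% and 7.67% of all genes did. The groups did not overlap for 6 genes that were higher and 13 that were lower in SOT folds, against 17.8% and 18.6% of all genes. The median log2 fold change was −0.15 over the 55 genes and 0.02 over all genes tested. RRM2 (log2 fold change 1.07 with SE 0.21 and adjusted p = 0.0138), GPX1 (log2 fold change 0.61 with SE 0.16 and adjusted p = 0.03597), LOC100340452 (log2 fold change 2.50 with SE 0.59 and adjusted p = 0.0255) and TXNDC12 (log2 fold change 0.36 with SE 0.10 and adjusted p = 0.0494) rose. LOC100357148 (log2 fold change -3.07 with SE 0.55 and adjusted p = 0.0108), GSTM2 (log2 fold change -2.76 with SE 0.58 and adjusted p = 0.0181), LOC100357403 (log2 fold change -2.08 with SE 0.45 and adjusted p = 0.0194), LOC100350399 (log2 fold change -0.60 with SE 0.13 and adjusted p = 0.0191) and GSTM3 (log2 fold change -0.44 with SE 0.13 and adjusted p = 0.0478) fell. GPX3 was at the threshold: it missed it in edgeR with all libraries (log2 fold change -2.07 with SE 0.61 and adjusted p = 0.0503) and passed in the fit with RLE scaling, DESeq2, the fit with upper-quartile scaling and all 3 limma fits (adjusted p 0.00213 to 0.0478). Without SOT replicate 1, the high library of GPX3, the log2 fold change was -3.27 and the adjusted p was 0.00505. GSR averaged 99.003 ± 25.1 CPM in SOT folds and 93.7 ± 19.7 CPM in normal folds and did not pass (log2 fold change 0.08 with SE 0.23 and adjusted p = 0.845), nor did GSTP1 (log2 fold change 0.15 with SE 0.17 and adjusted p = 0.606).

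The call of LOC100357148 held when any 1 library was left out. The call of GSTM2 was lost without normal replicate 1, with an adjusted p of 0.05501. RRM2 lost its call without normal replicate 1, with an adjusted p of 0.0559. LOC100350399 lost it without SOT replicate 2 or normal replicate 1, with adjusted p between 0.0604 and 0.0664. For LOC100357403 this happened without SOT replicate 2 or normal replicate 1 or 2, with adjusted p between 0.0524 and 0.0621. LOC100340452 no longer passed without SOT replicate 1 or 2 or normal replicate 1, 2 or 3, with adjusted p between 0.0571 and 0.0727, and in the fit of the 6 libraries compared (adjusted p 0.0561). The calls of GPX1, GSTM3 and TXNDC12 were the least stable. GPX1 lost its call without SOT replicate 1 or 2 or untreated replicate 1, 2 or 3 or normal replicate 1 or 2, with adjusted p between 0.0519 and 0.114, and in the fit of the 6 libraries compared (adjusted p 0.0916). GSTM3 lost it without SOT replicate 2 or 3 or untreated replicate 2 or 3 or normal replicate 1, 2 or 3, with adjusted p between 0.0636 and 0.152, and in the fit without the filter, the fit of the 6 libraries compared and all 3 limma fits (adjusted p 0.0572 to 0.08401). TXNDC12 lost it without SOT replicate 1 or 2 or untreated replicate 1, 2 or 3 or normal replicate 1, 2 or 3, with adjusted p between 0.0689 and 0.131, and in the fit with RLE scaling, the fit without the filter, the fit of the 6 libraries compared and the fit with upper-quartile scaling (adjusted p 0.0504 to 0.115). The count of rises was 7 without SOT replicate 3, 2 without SOT replicate 2 or any 1 of the untreated libraries, 1 without SOT replicate 1 or normal replicate 2 and 0 without normal replicate 1. The count of falls was 2 without SOT replicate 2 and 1 without normal replicate 1. Over all genes, in place of 1563 rises and 1331 falls, there were 1017 and 663 without SOT replicate 2, 916 and 867 without untreated replicate 3, 577 and 558 without normal replicate 1 and 790 and 652 without normal replicate 2.

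A further group of genes passed between SOT and normal folds in edgeR when 1 library was left out. Without SOT replicate 3 these were GPX7, ODC1 and TM4SF19, which were higher in SOT folds with adjusted p of 0.0271, 0.0156 and 0.0115, and LOC100328910, which was lower (0.0352). Without normal replicate 3 they were PGD (0.0263) and ANPEP (0.0488), which were higher, and LOC100356307 (0.00789) and GGT7 (0.02297), which were lower. LAP3 was higher without SOT replicate 2 (0.0206), and UBL4A was lower without normal replicate 2 (0.04001). With all libraries DESeq2 called GGT7, LOC100328910, LOC100356307, TM4SF19, LAP3, ODC1 and UBL4A, with adjusted p between 0.00765 and 0.0486. LAP3 and ODC1 passed in all 3 limma fits as well, with adjusted p of at most 0.0413, and UBL4A passed with RLE scaling (0.0493) and upper-quartile scaling (0.0432).

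The glutathione pathway reaches beyond these 65 genes, and 37 of 40 further genes listed for it were in the table and tested. Between untreated and normal folds 9 of them (24.3%) rose and 8 (21.6%) fell, where 17.7% and 15.1% of all genes did. Between SOT and untreated folds none passed by edgeR, with 5 higher and 3 lower at an unadjusted p under 0.05. DESeq2 called 1 of them higher and 0 lower there, and limma on log2(FPKM + 0.1) called 0. Between SOT and normal folds 6 (16.2%) rose and 7 (18.9%) fell, against 9.01% and 7.67% of all genes. BACH1, a repressor of antioxidant genes, had 130.4, 116 and 93.8 CPM in SOT folds, 128, 156 and 151 CPM in untreated folds and 49.8, 48.1 and 61.98 CPM in normal folds. All injured libraries were above all normal ones, and BACH1 rose in untreated folds (log2 fold change 1.45 with SE 0.16 and adjusted p = 0.000822) and in SOT folds against normal folds (log2 fold change 1.09 with SE 0.16 and adjusted p = 0.00642). Of the same list, NFE2L2 rose by edgeR in untreated folds (log2 fold change 0.58, adjusted p = 0.0079) and in SOT folds (0.43, 0.0422), both against normal folds. KEAP1 fell in both by edgeR (log2 fold change -0.41 and -0.35, adjusted p = 0.0125 and 0.0399). How these NFE2L2 and KEAP1 calls fared in the other fits is not given here. SLC3A2, the heavy chain of the cystine transporter, rose in untreated folds (log2 fold change 1.06 with SE 0.26 and adjusted p = 0.0152); without untreated replicate 2 or 3 the adjusted p of SLC3A2 was 0.0537 and 0.0547. It was lower in SOT than in untreated folds without passing (log2 fold change -0.63 with SE 0.25 and adjusted p = 0.364), and passed there without SOT replicate 1 (0.0301). Its partner SLC7A11, which carries the cystine, had 1.94, 4.47 and 2.34 CPM in SOT folds, 1.21, 1.34 and 1.59 CPM in untreated folds and 1.199, 0.8796 and 0.677 CPM in normal folds. Every SOT library was above every untreated and every normal one. SLC7A11 did not pass between SOT and untreated folds (log2 fold change 1.08 with SE 0.39 and adjusted p = 0.313) and rose in SOT folds against normal folds (log2 fold change 1.67 with SE 0.40 and adjusted p = 0.0263), a call lost without SOT replicate 2 or normal replicate 1, 2 or 3, with adjusted p between 0.0524 and 0.0802, and in the fit of the 6 libraries compared (adjusted p 0.069001).

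TXNRD1, the cytosolic thioredoxin reductase, rose in untreated folds (log2 fold change 0.88 with SE 0.29 and adjusted p = 0.04502) and in SOT folds (log2 fold change 1.10 with SE 0.29 and adjusted p = 0.0351), both against normal folds. The TXNRD1 call in untreated folds was lost without untreated replicate 1, 2 or 3 or normal replicate 2 or 3, with adjusted p between 0.0793 and 0.1304, and in the fit with upper-quartile scaling (adjusted p 0.0737). That in SOT folds was lost without SOT replicate 2 or untreated replicate 1, 2 or 3 or normal replicate 2 or 3, with adjusted p between 0.0532 and 0.106, and in the fit of the 6 libraries compared (adjusted p 0.0872). IDH2, the mitochondrial NADPH-producing isocitrate dehydrogenase, had 379, 206 and 317 CPM in SOT folds, 359, 237 and 303 CPM in untreated folds and 647, 646 and 677 CPM in normal folds. Normal libraries were far above all injured ones. IDH2 fell in untreated folds (log2 fold change -1.13 with SE 0.23 and adjusted p = 0.00845) and in SOT folds against normal folds (log2 fold change -1.13 with SE 0.23 and adjusted p = 0.0171), the second call being lost without normal replicate 1, with an adjusted p of 0.0525. ABCC2, an export pump for glutathione conjugates, fell in untreated folds (log2 fold change -1.21 with SE 0.30 and adjusted p = 0.0174), and the ABCC2 call was lost without untreated replicate 1 or 3 or normal replicate 1, with adjusted p between 0.0532 and 0.0566. IDH1, the cytosolic counterpart of IDH2, had 168, 198 and 187 CPM in SOT folds, 209, 205 and 198 CPM in untreated folds and 188, 149 and 221 CPM in normal folds. It did not pass between SOT and untreated folds (log2 fold change -0.15 with SE 0.15 and adjusted p = 0.717), between untreated and normal folds (log2 fold change 0.13 with SE 0.15 and adjusted p = 0.528) or between SOT and normal folds (log2 fold change -0.01 with SE 0.15 and adjusted p = 0.962).

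GCLC, the catalytic subunit of the first step of glutathione synthesis, had 55.5, 143 and 97.04 CPM in SOT folds, 53.2, 49.2 and 53.1 CPM in untreated folds and 86.1, 63.6 and 103 CPM in normal folds. SOT replicate 1 was close to the untreated libraries and the other SOT libraries were higher. GCLC did not pass between SOT and untreated folds (log2 fold change 0.92 with SE 0.31 and adjusted p = 0.289); without SOT replicate 1 its adjusted p was 0.0388. Between untreated and normal folds it did not pass either (log2 fold change -0.70 with SE 0.31 and adjusted p = 0.117), and again passed without SOT replicate 1 (0.0351), and in the fit of the 6 libraries compared (adjusted p 0.0188). GCLM, its modifier subunit, had 39.9, 50.002 and 43.2 CPM in SOT folds, 29.9, 33.7 and 33.5 CPM in untreated folds and 31.03, 30.8 and 37.8 CPM in normal folds. Every SOT library was above every untreated one, and the difference did not pass (log2 fold change 0.45 with SE 0.13 and adjusted p = 0.234). In edgeR, GCLM passed between SOT and normal folds without SOT replicate 1 (0.0497) or normal replicate 3 (0.0432), though not with all libraries (log2 fold change 0.42 with SE 0.13 and adjusted p = 0.0585), and it passed in DESeq2 and all 3 limma fits (adjusted p 0.0287 to 0.04605). ABCC2 likewise was higher in every SOT library than in any untreated one, at 1.68, 1.83 and 2.01 CPM in SOT folds, 0.711, 0.976 and 0.963 CPM in untreated folds and 2.37, 1.47 and 2.29 CPM in normal folds, and passed in DESeq2 (adjusted p = 0.0209) but not in edgeR (log2 fold change 1.06 with SE 0.30 and adjusted p = 0.238).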

How the data were processed

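Polyadenylated RNA of 9 vocal fold libraries was analysed from 1 table of 20525 genes with the deposited counts, whole numbers per gene and library, and the deposited FPKM values. Per the submitters' processing notes, the tools were cutadapt 1.9, HISAT2 2.0.4, StringTie 1.3.4d and edgeR, and the assembly was OryCun2.0. How reads with several matches and the mates of a pair were counted is not given in the sources used here.

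From the counts, edgeR 4.0.16 (R 4.3.3) was run with filterByExpr by group, TMM scaling, 1 mean per group over all 9 libraries and the quasi-likelihood test, with Benjamini-Hochberg adjustment over 17344 genes. The filter left 10 of the 65 genes untested, none above 36 counts or 0.764 CPM. A count of 0 allows up to 3 counts, or 0.0557 to 0.0692 CPM, counting error only. RefSeq (assembly mOryCun1.1) gave names alone, for 2 of the 27 genes with LOC names.

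The genes, role groups, marker lists and further pathway genes were chosen with earlier results of these data known. By rule, full values are given for genes that passed (up to 25 and 15 against normal folds), the 4 of highest mean FPKM, GSS, GSR and GPX1, the 2 of smallest p per direction between SOT and untreated folds, up to 4 further pathway genes per comparison, and GCLC, GCLM, IDH1 and IDH2. Other genes given by library, such as LOC100356307, LOC100341104 and GPX2, were added after their values were seen, as were NFE2L2 and KEAP1. Of the 65 genes, 1 is counted but not reported here by itself.

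Alternatives were DESeq2 1.42.0, RLE scaling, no filter, the replicate number as a block, the 6 libraries of a comparison alone, limma 3.58.1 on log2(FPKM + 0.1), with and without the filter, and on log2(FPKM + 1), and leaving out each library. Upper-quartile scaling and the count without the 6 genes that are not enzymes were added after seeing the data. The fits were tested on simulated data. Libraries of a group differed by more than sampling noise (chi-square per degree of freedom 48.7 to 321).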

Additional observations from a re-analysis of the deposited data

How the results depend on the processing

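No call was reversed. Of the values of named genes and medians of all genes under the alternatives, 1809 were counted as unchanged, 138 lost the call and 51 gained it. Medians of all genes have no threshold and were always counted as unchanged, so the 1809 overstates how many calls held. Between SOT and untreated folds DESeq2 called 1 of the glutathione genes higher. Over all genes the count higher there (0 in edgeR) was 221 in DESeq2, 4 in limma with + 1 and 0 to 76 on leaving out 1 library. The count lower (2 in edgeR) was 424 in DESeq2, 0 with the replicate block and 0 from the 6 libraries alone. In limma it was 0 with + 0.1, 23 with + 1 and 8 with + 0.1 and no filter. It was 1 with upper-quartile scaling and 0 to 321 on leaving out 1 library. The median of the glutathione genes there (0.08) was 0.0466 without the filter, 0.0340 with the replicate block, 0.12 from the 6 libraries, 0.15, 0.14 and 0.15 in the 3 limma fits, 0.14 with upper-quartile scaling and −0.0426 to 0.0757 on leaving out 1 library. Between untreated and normal folds, leaving out 1 library gave 6 to 12 rises and 5 to 12 falls among the glutathione genes and 1915 to 3254 and 1230 to 2785 over all genes. Between SOT and normal folds the glutathione genes had 7 rises in DESeq2, 2 with the replicate block, 1 from the 6 libraries and 0 to 7 on leaving out 1 library, and 10 falls in DESeq2 and 1 to 6 on leaving out 1 library. Over all genes there were 2417 rises in DESeq2, 692 from the 6 libraries and 577 to 1987 on leaving out 1 library, and 2301, 886 and 558 to 1235 falls. The median there (−0.15) was 0.0404 in limma with + 0.1 and −0.18 to 0.16 on leaving out 1 library. The causes were not tested. Upper-quartile scaling moved the median of all genes between untreated and normal folds to −0.11. The labels do not say whether replicate numbers pair the libraries. Correlations of deviations from the group means ran from −0.05 to 0.41 for same-numbered libraries and from −0.40 to 0.25 for the others. With 3 libraries per group they cannot show whether libraries were paired. With the replicate block, adjusted p between untreated and normal folds was 0.0695 for LAP3, 0.0576 for TM4SF19 and 0.0447 for ANPEP, and between SOT and normal folds 0.0663 for GPX1, 0.0565 for TXNDC12, 0.0538 for SLC7A11 and 0.0371 for GPX3, on the other side of the threshold from the fit without it. Depth limits the 10 untested genes and those near 1 CPM, such as LOC100341104 and TM4SF19.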

Other observations

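SMS, spermine synthase, had 185 CPM in normal replicate 3 against 116 and 87.1 CPM in the other normal libraries, and MGST3 had its highest value in the same library. GPX2 was highest in SOT replicate 3 and LOC100353927 in SOT replicate 2. These libraries were picked out after their values were seen, and with 3 libraries per group no test of a single library was made.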
